A study of Mus musculus with 47 samples.

Results

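The immediate early genes described here are 10 genes of the Fos, Jun and Egr families with Atf3 and Ier2, out of 18194 genes that the arrays name with 1 symbol. They are Fos, Fosb, Jun, Junb, Jund, Egr1, Egr2, Egr3, Atf3 and Ier2. All probe sets annotated to 1 of these symbols alone were taken, which gave 14 probe sets: 2 each for Jun, Jund, Egr2 and Egr3 and 1 for each other gene. The genes were chosen with their levels on these arrays known, so the levels below are a description. Calls among the 10 are not read as evidence, and those of the fit of all arrays are printed beside the share of all genes called.

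RNA came from 2000 sorted bone marrow cells of adult C57Bl6 mice per array and was amplified before hybridisation to 47 Affymetrix mouse arrays in 17 groups. All groups share that strain, tissue and cell number, and the labels name no treatment, genotype or sorting marker and no age beyond adult. By label name, LMPP has 5 arrays and MkE and PreB have 4. There are 3 each of CFUE, PreCFUE, ProE, GMP, MkP and ETP, and 2 each of STHSC, LTHSC, CLP, GM, ProB, IgM+SP, NKmature and CD4. The arrays of a group are labelled biological replicates, with nothing said of separate or pooled animals, so p-values and SDs measure the spread between these arrays.

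Immediate early genes are transcribed within minutes of a stimulus from transcription factors already present in the cell, without new protein synthesis. Growth factors, antigen receptor signals and stress act on them through MAP kinases and serum response factor, which binds CArG boxes. Fos and Jun proteins pair as the AP-1 transcription factor, the Egr proteins are zinc finger transcription factors, and in lymphocytes Egr2 and Egr3 follow antigen receptor signals.

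Promoter windows are shown as background on these genes. No link between their letters and the levels was tested, and sites outside the windows were not searched. The windows run from 250 bases before to 50 bases after an annotated start (RefSeq, build GRCm38.p6). Searched were 11 windows for 7 of the 10 genes. The source held no window for Egr3 and Ier2, and Egr1 was left out of the search. Both strands were searched for the CArG box, the TATA box TATAAA, the CRE TGACGTCA, the AP-1 site TGANTCA and the Egr site GCGNGGGCG. Capitals mark the match in each line, and the 3 windows lie at chr12:85473640-85473939 (Fos, plus strand), chr10:67537619-67537918 (Egr2, plus strand) and chr7:19309996-19310295 (Fosb, minus strand), each around a start of its gene. Fos spans 85473890 to 85477274 on chromosome 12, Egr2 67534469 to 67542188 on chromosome 10 and Fosb 19302696 to 19310118 on chromosome 7.
Fos, TATA box: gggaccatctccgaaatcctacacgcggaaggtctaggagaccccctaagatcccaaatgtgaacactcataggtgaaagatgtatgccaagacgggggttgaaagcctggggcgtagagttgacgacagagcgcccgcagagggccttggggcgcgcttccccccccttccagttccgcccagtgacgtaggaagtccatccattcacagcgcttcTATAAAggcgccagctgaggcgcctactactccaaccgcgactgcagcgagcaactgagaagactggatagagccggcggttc
Egr2, CArG box: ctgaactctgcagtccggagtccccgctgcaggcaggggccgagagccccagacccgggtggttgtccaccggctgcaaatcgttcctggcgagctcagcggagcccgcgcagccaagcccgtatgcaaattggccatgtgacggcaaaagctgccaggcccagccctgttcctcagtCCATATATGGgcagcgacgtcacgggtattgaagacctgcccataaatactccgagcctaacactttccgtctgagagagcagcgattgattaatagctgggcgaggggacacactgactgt
Fosb, Egr site: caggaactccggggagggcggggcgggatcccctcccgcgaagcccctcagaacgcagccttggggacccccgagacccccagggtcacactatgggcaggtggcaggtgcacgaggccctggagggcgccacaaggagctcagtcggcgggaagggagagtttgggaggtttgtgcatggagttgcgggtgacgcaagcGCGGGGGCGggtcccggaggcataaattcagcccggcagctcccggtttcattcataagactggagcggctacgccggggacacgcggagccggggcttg

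The TATA box of the Fos window ended 28 bases before the start, and 13.62% of 32851 RefSeq promoter windows of the same length hold those letters. A CArG box stood in 4 of the 5 Egr2 windows. In 3 of these it is the same site, CCATATATGG, so the windows hold 2 distinct boxes, and 1.81% of 27025 genes have a window with one. It ended 63 bases before the start in the window shown. The Egr site of Fosb ended 42 bases before the start, and 5.55% of all windows hold one. The Junb window held TATAAA at the annotated start, and the windows of Jun, Jund and Atf3 held none of the motifs. No window of the 7 genes held the CRE (1.79% of all windows) or the AP-1 site (7.81%). No 2 matches overlapped within a window. A match is a run of letters and was not tested as a binding site.

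Levels are log2 of the deposited intensity, on which a difference of 1 is a doubling, and the median of all values was 3.889, drawn here as the level below which a probe set is dim. Levels of different probe sets are not comparable with each other. Array medians ran from 13.79 to 16.93 on the linear scale, and replicates correlated at 0.928 to 0.997 over the 13949 genes tested. Over the same genes, 46 of the 47 arrays correlated best with an array of their own group. In RNA of sorted populations, fewer cells with a transcript and less transcript per cell cannot be told apart.

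The lineage markers followed most labels, with exceptions that touch these genes. The 2 arrays labelled ProB held NK cell transcripts: the mean log2 level of 5 NK genes was 9.38 and 9.13 there, against 11.16 and 11.28 on the NKmature arrays and 3.54 to 6.41 on the PreB arrays. Their B cell list stood at 7.46 and 5.27, against 8.29 to 9.74 on the PreB arrays, so they are called the arrays labelled ProB below. The list of 5 neutrophil genes (S100a8, S100a9, Ltf, Camp and Ngp) averaged 8.60 and 8.48 on LMPP arrays 4 and 5, against 3.86 to 4.02 on LMPP arrays 1 to 3. It also stood at 10.37 and 10.95 on PreB arrays 3 and 4, at 3.82 and 6.23 on PreB arrays 1 and 2, and above 10 on the IgM+SP and NKmature arrays and on array 2 labelled ProB. It was 7.66 to 8.13 in GMP, 6.55 and 8.29 in GM, 6.48 to 8.15 in MkE, 7.68 on MkP array 1 and 3.85 and 4.43 in CD4. Some genes of other lists were bright outside their lineage, while others of the same lists were not. In CD4 the erythroid genes Alas2 and Slc4a1 averaged 8.42 and 7.16 (Hba-a1 3.11). The B cell genes Ms4a1 and Cd22 averaged 6.54 and 6.46 there (Ebf1 2.92). The arrays labelled ProB averaged 7.60 for the T cell gene Cd3d (Bcl11b 4.96) and 9.94 for the macrophage gene Cd68 (Adgre1 3.99). On PreB array 4 the brightest megakaryocyte gene was 10.26. What part these transcripts have in the levels below was not tested.

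**Figure D1:**
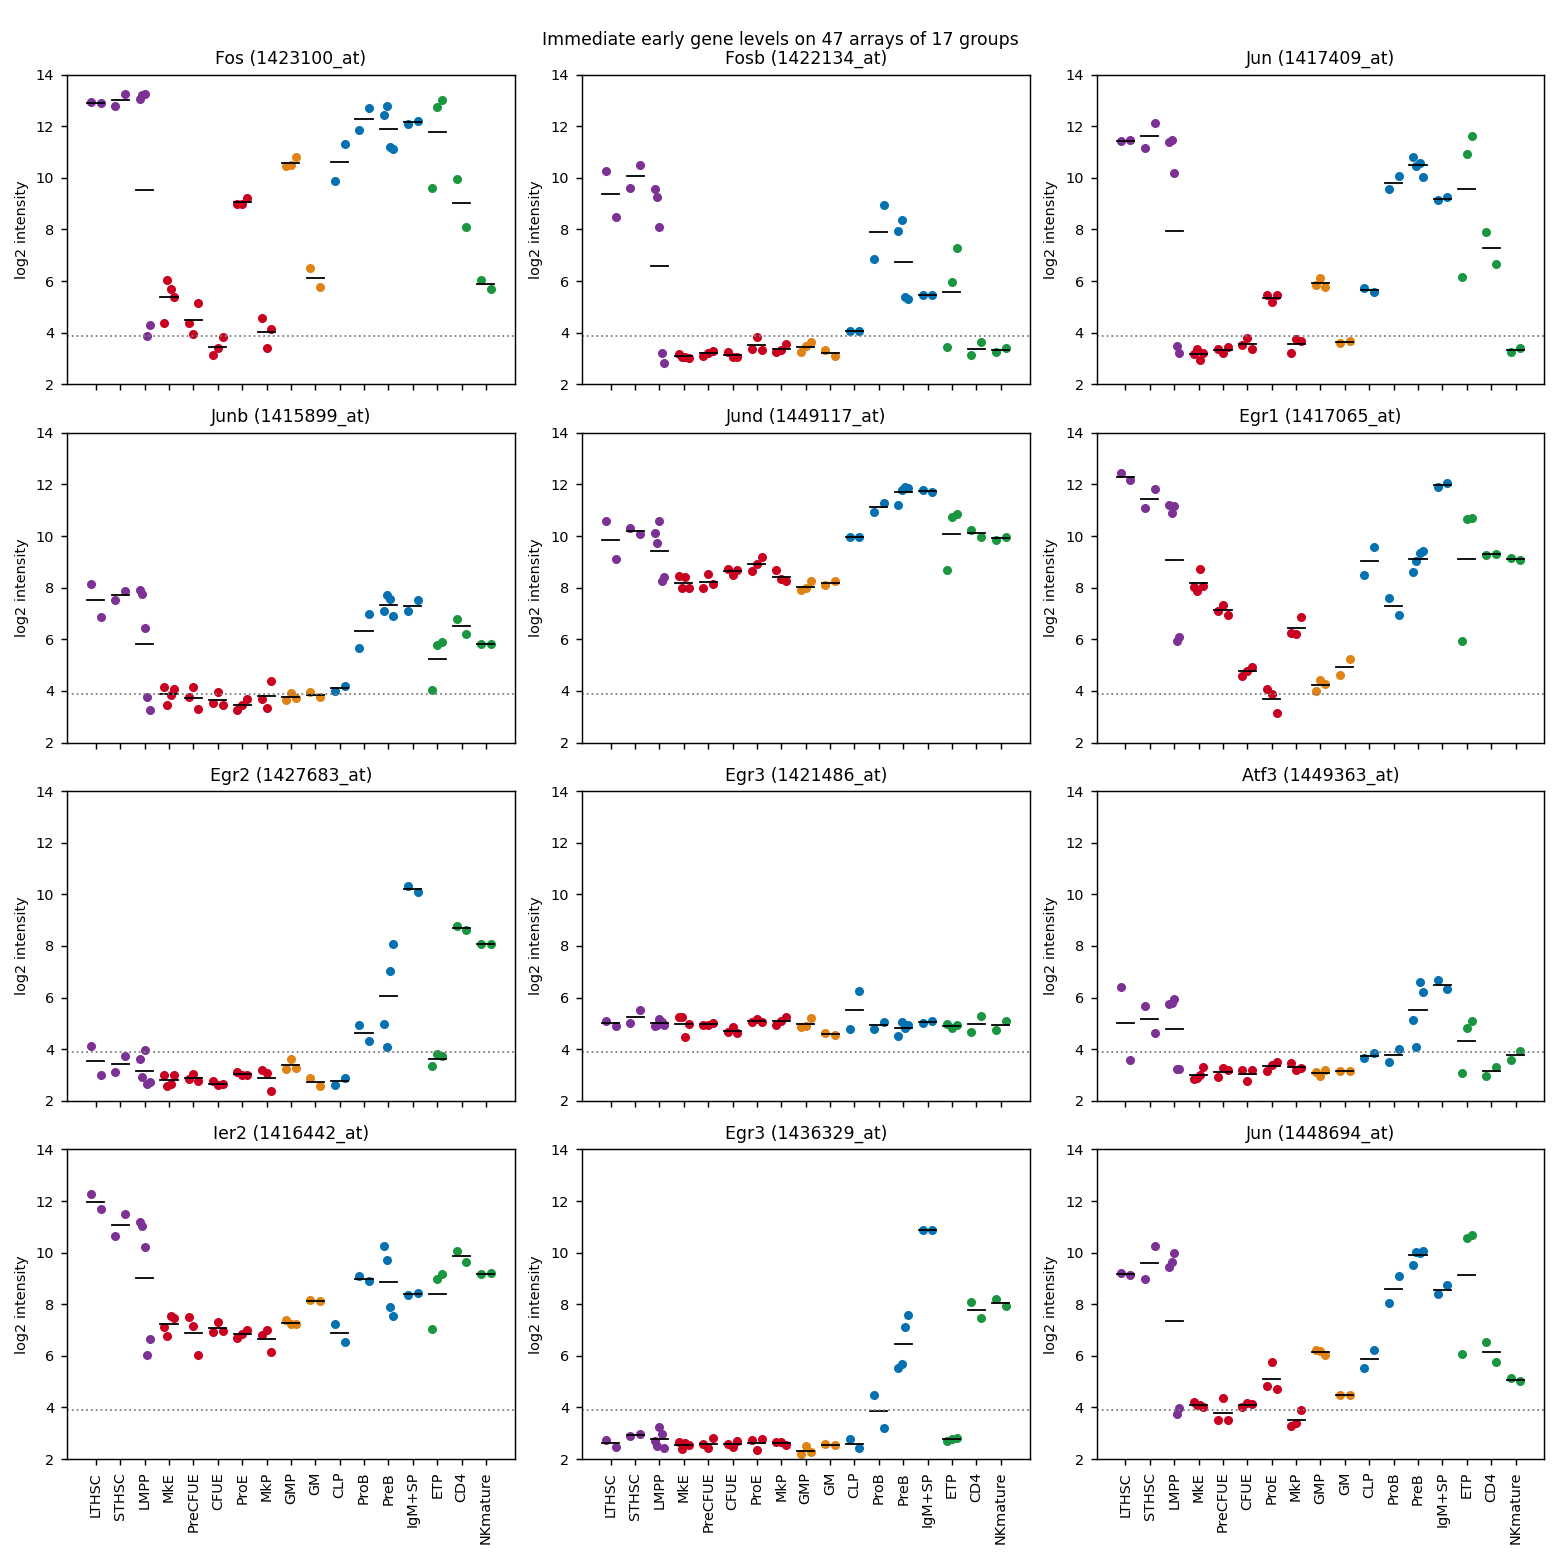
Log2 intensity of the 10 genes on every array, with 1 panel per probe set, a second panel for Egr3 and Jun, groups along the horizontal axis, 1 point per array and a bar at the group mean. Colours mark branches of the lineage tree, and the dotted line is the median of all values (3.889). LMPP and ETP points split widely for most genes, while Egr2 and the dimmer Egr3 set (middle of the bottom row) are brightest in mature or B lineage groups.

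Fos, which pairs with Jun proteins in AP-1, covered the widest range, from 3.12 to 13.26. STHSC arrays stood at 12.78 and 13.25 and LTHSC arrays at 12.93 and 12.89. It was 12.09 and 12.20 in IgM+SP, 12.45, 12.78, 11.20 and 11.12 in PreB, and 11.85 and 12.69 on the arrays labelled ProB. The erythroid series was not uniform: Fos was dim in CFUE at 3.12, 3.41 and 3.84 and bright in ProE at 8.97, 8.98 and 9.20. GMP arrays held 10.45, 10.51 and 10.79, and GM arrays held 6.51 and 5.76, without overlap between them. In the order of group means, STHSC came first at 13.02 ± 0.33 (SD, n = 2) and CFUE last at 3.46 ± 0.36 (SD, n = 3), and of 16 steps between neighbouring groups 2 separated arrays without overlap. Those steps lay between LTHSC and the arrays labelled ProB and between CD4 and GM, and every other neighbouring pair overlapped.

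Jun, the main partner of Fos, followed a similar order with a sharper floor. It was 11.14 and 12.11 in STHSC, 11.42 and 11.46 in LTHSC, and 10.82, 10.47, 10.58 and 10.04 in PreB. GMP held 5.85, 6.13 and 5.76, CLP 5.72 and 5.59 and ProE 5.47, 5.17 and 5.44, each group clear of its neighbours. On MkE, PreCFUE, CFUE, MkP, GM and NKmature arrays Jun lay between 2.96 and 3.80, under the median of all values. The second, dimmer Jun set put PreB first with 9.51 to 10.06 and MkP last with 3.27 to 3.89, so the sets differ in the order at the top. They also differ lower down. On the second set NKmature held 5.14 and 5.01, and the MkE, CFUE and GM arrays too lay above the median of all values. GMP, CLP and ProE overlapped there.

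Fosb, a further Fos family member, was bright in few groups. Its level was 9.62 and 10.50 in STHSC, 10.25 and 8.50 in LTHSC, 6.84 and 8.96 on the arrays labelled ProB and 7.93, 8.37, 5.38 and 5.30 in PreB. IgM+SP held 5.46 on both arrays and CLP 4.06 on both. In the other groups except LMPP and ETP it stayed at 3.84 or lower. Junb, which is a weaker activator than Jun in many settings, gave 7.54 and 7.88 in STHSC, 8.16 and 6.86 in LTHSC and 7.08 and 7.53 in IgM+SP, against 3.27, 3.45 and 3.67 in ProE. Only 1 of its 16 steps was free of overlap.

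Jund, the Jun family member that is present in resting cells, was bright on every array, with its lowest at 7.90 in GMP. IgM+SP arrays held 11.80 and 11.70 and PreB arrays 11.22, 11.79, 11.89 and 11.88, and the arrays labelled ProB 10.95 and 11.28. All GMP, GM, MkE, PreCFUE, MkP and CFUE arrays lay between 7.90 and 8.74. The second Jund set was dim on most arrays (2.91 to 4.37) with overlap at every step.

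Egr1, the Egr family member that growth factors induce in most cell types, separated more groups than Fos, with 7 of 16 steps free of overlap. It was 12.44 and 12.16 in LTHSC, 11.90 and 12.05 in IgM+SP and 11.08 and 11.83 in STHSC. In the megakaryocyte and erythroid groups it ran in the order MkE (8.03, 7.86, 8.74 and 8.08), PreCFUE (7.11, 7.34 and 6.95), MkP (6.25, 6.21 and 6.87), CFUE (4.59, 4.76 and 4.93) and ProE (4.09, 3.87 and 3.13), with no overlap between successive groups of that list. In ProE Egr1 had its lowest group mean, while Fos ranked 10th of 17 groups with a mean of 9.05. GMP held 4.01, 4.43 and 4.26 and GM 4.63 and 5.22.

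Egr2, which restrains lymphocyte activation and marks antigen receptor signalling, was bright in mature lymphoid groups. It was 10.34 and 10.10 in IgM+SP, 8.78 and 8.63 in CD4 and 8.08 and 8.06 in NKmature, and 4.98, 4.10, 7.04 and 8.08 in PreB. Both LTHSC and STHSC arrays, where Fos, Jun and Egr1 were among their brightest, held 3.00 to 4.12. The second, dimmer Egr2 set put the same 4 groups on top but NKmature (8.41 and 8.26) before CD4 (7.74 and 6.87).

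Egr3, a close relative of Egr2, depended on the probe set. The set that is dimmer on average gave 10.86 on both IgM+SP arrays, 8.21 and 7.92 in NKmature, 8.10 and 7.48 in CD4 and 5.52, 5.68, 7.10 and 7.58 in PreB, and every array outside those groups and the arrays labelled ProB stayed at 3.26 or lower. The brighter set was flat between 4.46 and 6.25 on all arrays and overlapped at 15 of 16 steps. The brighter set stands for Egr3 in tests over all genes, and the other is called the second Egr3 set below.

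Atf3, a stress-induced bZIP factor that often represses, was 6.67 and 6.34 in IgM+SP, 5.13, 4.10, 6.61 and 6.22 in PreB, 6.40 and 3.60 in LTHSC and 5.69 and 4.62 in STHSC. It was 5.75, 5.78 and 5.94 on LMPP arrays 1 to 3, and 3.08, 4.82 and 5.08 on ETP arrays 1 to 3. Its LTHSC arrays differed by 2.80, its widest gap in any group. Ier2, a nuclear protein of the early growth response, was 12.28 and 11.68 in LTHSC, 10.66 and 11.51 in STHSC, 10.07 and 9.64 in CD4 and 9.17 and 9.21 in NKmature. CD4 and NKmature arrays were thus bright for Ier2 while Fosb on the same arrays lay between 3.12 and 3.62. MkP came last for Ier2 with 6.79, 7.02 and 6.15.

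**Figure D2:**
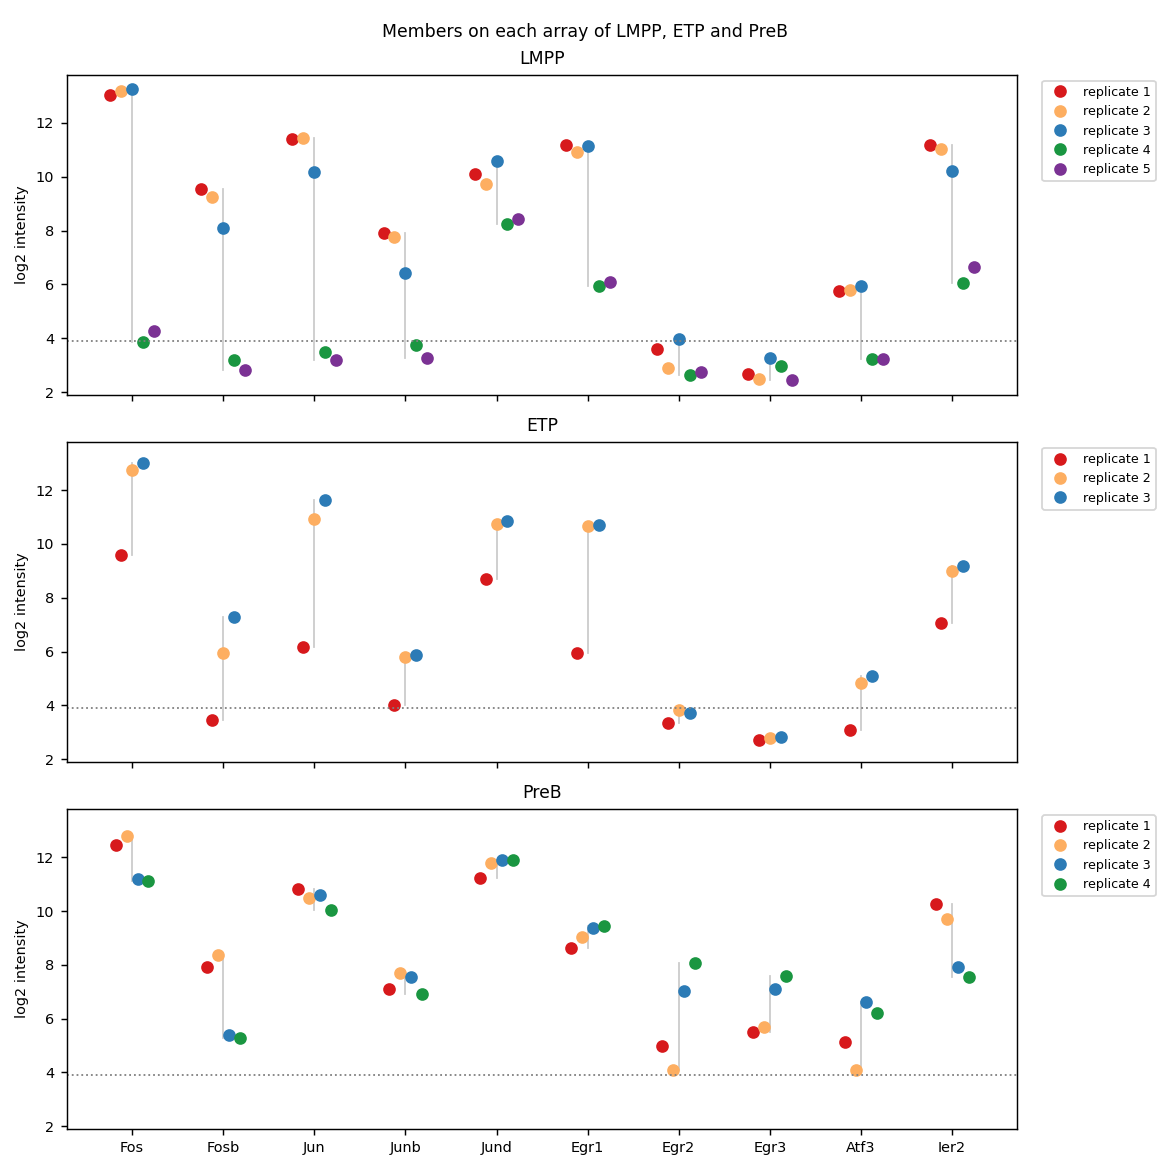
Log2 intensity of the 10 genes on each array of LMPP, ETP and PreB, with genes along the horizontal axis, 1 coloured point per replicate and a grey line over the group's range; Egr3 is its second set and the dotted line is the median of all values (3.889). LMPP replicates 4 and 5 and ETP replicate 1 lie well below the other arrays of their group for the 8 genes other than Egr2 and Egr3, and the PreB arrays divide in opposite directions for Fosb and Egr2.

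The LMPP arrays did not share a level for most of the genes. Fos was 13.04, 13.20, 13.26, 3.86 and 4.28 on arrays 1 to 5. Jun was 11.39, 11.46, 10.17, 3.49 and 3.21, and Egr1 was 11.20, 10.91, 11.16, 5.93 and 6.09. Arrays 1 to 3 thus stood at or near the level of the LTHSC and STHSC arrays, and arrays 4 and 5 at or near the level of CFUE for Fos and Jun. Fosb was 9.56, 9.24, 8.10, 3.20 and 2.84, Junb was 7.92, 7.75, 6.44, 3.76 and 3.28, and Ier2 was 11.19, 11.05, 10.22, 6.04 and 6.64. Jund differed less, at 10.11, 9.72, 10.58, 8.25 and 8.43, and Atf3 was 5.75, 5.78, 5.94, 3.22 and 3.22. Egr2 stayed dim throughout, at 3.62, 2.91, 3.96, 2.64 and 2.74. The mean of the 10 genes was 8.87, 8.70, 8.50, 4.55 and 4.57, while 9 housekeeping genes averaged 11.00, 11.03, 10.36, 10.71 and 10.73. Array medians were alike, at 14.70, 14.91, 15.13, 15.20 and 15.24.

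The same arrays differed in other ways. The neutrophil list stood at 3.88, 4.02, 3.86, 8.60 and 8.48 on LMPP arrays 1 to 5, and Xist, the transcript of the inactive X chromosome, was 4.03, 3.89, 9.12, 10.45 and 10.54. Eif2s3y, a Y-linked gene, was 8.01, 8.43, 7.35, 6.90 and 6.89, so arrays 3 to 5 held transcripts of both sexes. Array 3 carried both while its Fos and Egr1 stayed with arrays 1 and 2. Their part in the levels of the 10 genes was not tested.

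In ETP, array 1 stood below arrays 2 and 3. Fos was 9.59, 12.75 and 13.00, Jun 6.17, 10.91 and 11.62, and Egr1 5.93, 10.68 and 10.69 on arrays 1 to 3. Fosb was 3.46, 5.96 and 7.28, Ier2 7.05, 8.99 and 9.19, and Jund 8.68, 10.75 and 10.85. Fos stayed bright on array 1 while Jun stood near the GMP arrays and Egr1 near the MkP arrays, so the genes did not shift by equal amounts. Arrays 2 and 3 carried Xist at 10.95 and 11.21 beside Eif2s3y at 7.68 and 7.17, and array 1 carried Eif2s3y at 8.53 with Xist at 3.76. The neutrophil list was low on all ETP arrays, at 4.37, 3.79 and 3.82.

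PreB arrays differed in which genes were high. Fosb was 7.93, 8.37, 5.38 and 5.30 and Ier2 10.27, 9.72, 7.91 and 7.54 on arrays 1 to 4, while Egr2 was 4.98, 4.10, 7.04 and 8.08, the second Egr3 set 5.52, 5.68, 7.10 and 7.58 and Atf3 5.13, 4.10, 6.61 and 6.22. Fosb and Ier2 were thus higher on arrays 1 and 2, and Egr2, Egr3 and Atf3 on arrays 3 and 4. The mean of the 10 genes hid this, at 8.30, 8.31, 8.24 and 8.14. On the same arrays the neutrophil list was 3.82, 6.23, 10.37 and 10.95, the NK list 3.54, 3.66, 6.29 and 6.41 and Xist 10.64, 10.46, 3.84 and 3.91. Their part was not tested.

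**Figure D3:**
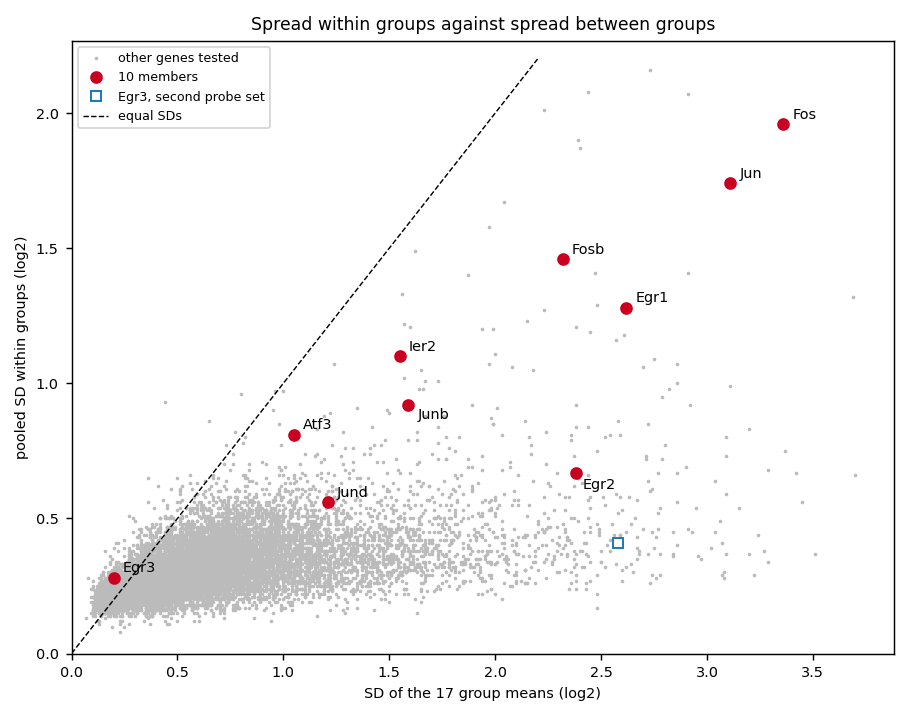
Pooled SD of arrays around their group means against the SD of the 17 group means, both on the log2 scale, with 1 grey point for each gene tested, red points for the 10 genes and an open square for the second Egr3 set. The dashed line marks equal SDs. Fos lies at 1.96 within groups and 3.36 between groups, far above the median gene on the vertical axis, and Egr3 (brightest set) lies near the origin.

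Spread within groups and between groups was separated for each gene over all 47 arrays. The pooled within-group SD was 1.96 for Fos, 1.74 for Jun, 1.46 for Fosb, 1.28 for Egr1 and 1.10 for Ier2, against a median of 0.30 and a 99th percentile of 0.71 over 13949 genes tested. Junb had 0.92, Atf3 0.81, Egr2 0.67 and Jund 0.56, and Egr3 had 0.28. The 9 genes other than Egr3 lay at the 96.9th percentile or higher. The SD of group means was 3.36 for Fos, 3.11 for Jun, 2.62 for Egr1, 2.38 for Egr2 and 2.32 for Fosb, where the median gene had 0.58 and the 99th percentile was 2.42. The SD of group means exceeded the pooled within-group SD for the 9 genes other than Egr3, which had 0.20 between groups and 0.28 within. The second Egr3 set had 2.58 between groups and 0.41 within.

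For 6 of the genes most of the within-group spread came from LMPP. Those 5 arrays held 86.0% of the within-group sum of squares of Fos, 78.3% of that of Jun, 75.6% for Junb, 68.8% for Ier2, 68.4% for Fosb and 63.0% for Egr1. They held 44.8% for Jund, 41.5% for Atf3, 10.1% for Egr2 and 2.0% for Egr3. ETP held a further 30.6% for Egr1, 31.5% for Jund and 19.2% for Jun. Of the Egr2 sum, 74.9% lay in PreB. Without LMPP and ETP the within-group SD was 0.61 for Fos, 0.30 for Jun, 0.36 for Egr1, 0.31 for Jund, 0.41 for Junb, 0.73 for Fosb, 0.62 for Atf3 and 0.59 for Ier2. Egr2 had 0.71, against 0.67 with all arrays. The share of the variance that lay between groups was 80.8% for Fos, 81.7% for Jun, 84.7% for Egr1, 70.6% for Atf3 and 93.9% for Egr2. A limma F-test over the 17 groups, with Benjamini-Hochberg adjustment, called 9 of the 10 genes, all but Egr3, where 90.3% of all genes tested were called. That test used the flat, brighter Egr3 set, with 38% of its variance between groups. The second Egr3 set, which it did not use, had 98% between groups.

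**Figure D4:**
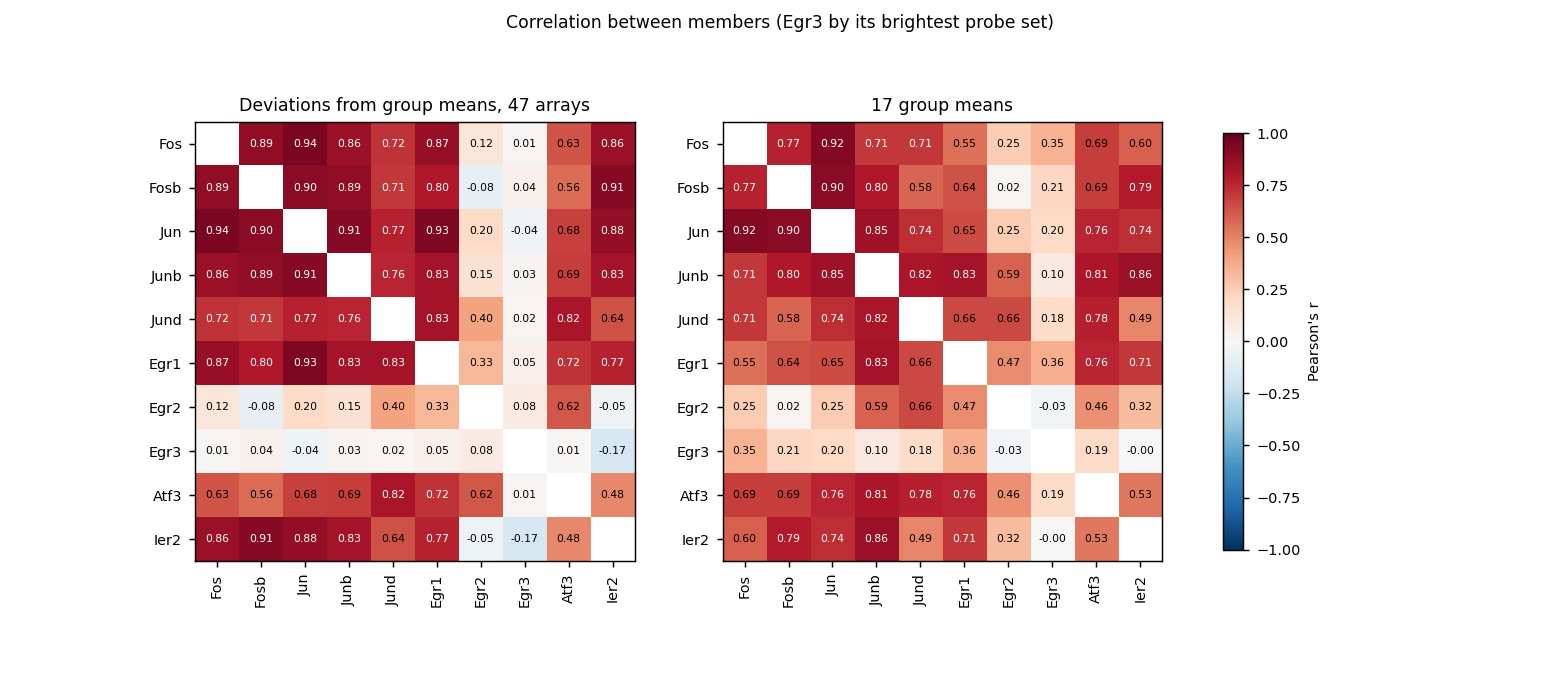
Pearson's r between each pair of the 10 genes, on the left over the deviations of 47 arrays from their group means and on the right over the 17 group means. Red marks positive r. Fos, Fosb, Jun, Junb, Jund, Egr1, Atf3 and Ier2 form a block with r of 0.48 to 0.94 on the left, and the row of Egr3 is pale. The Egr2 row is paler for most genes and reaches 0.62 with Atf3 on the left and 0.66 with Jund on the right.

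Deviations from the group means moved together for 8 of the genes. Over 47 arrays, the 28 pairs that leave out Egr2 and Egr3 had r of 0.48 to 0.94 with a median of 0.82, with the highest between Fos and Jun and the lowest between Atf3 and Ier2. Egr2 correlated with the other genes at -0.08 to 0.62. The pairs share arrays and genes, so they are not independent of each other. Without the LMPP and ETP arrays the same 28 pairs ran from -0.41 to 0.64 with a median of 0.11 over 39 arrays. Across the 17 group means the 28 pairs had r of 0.49 to 0.92 with a median of 0.74. Leaving out the arrays labelled ProB moved the correlation of a gene's group means with the mean of the other 9 by 0.04 at most: Egr1 had 0.77 with those arrays and 0.81 without.

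**Figure D5:**
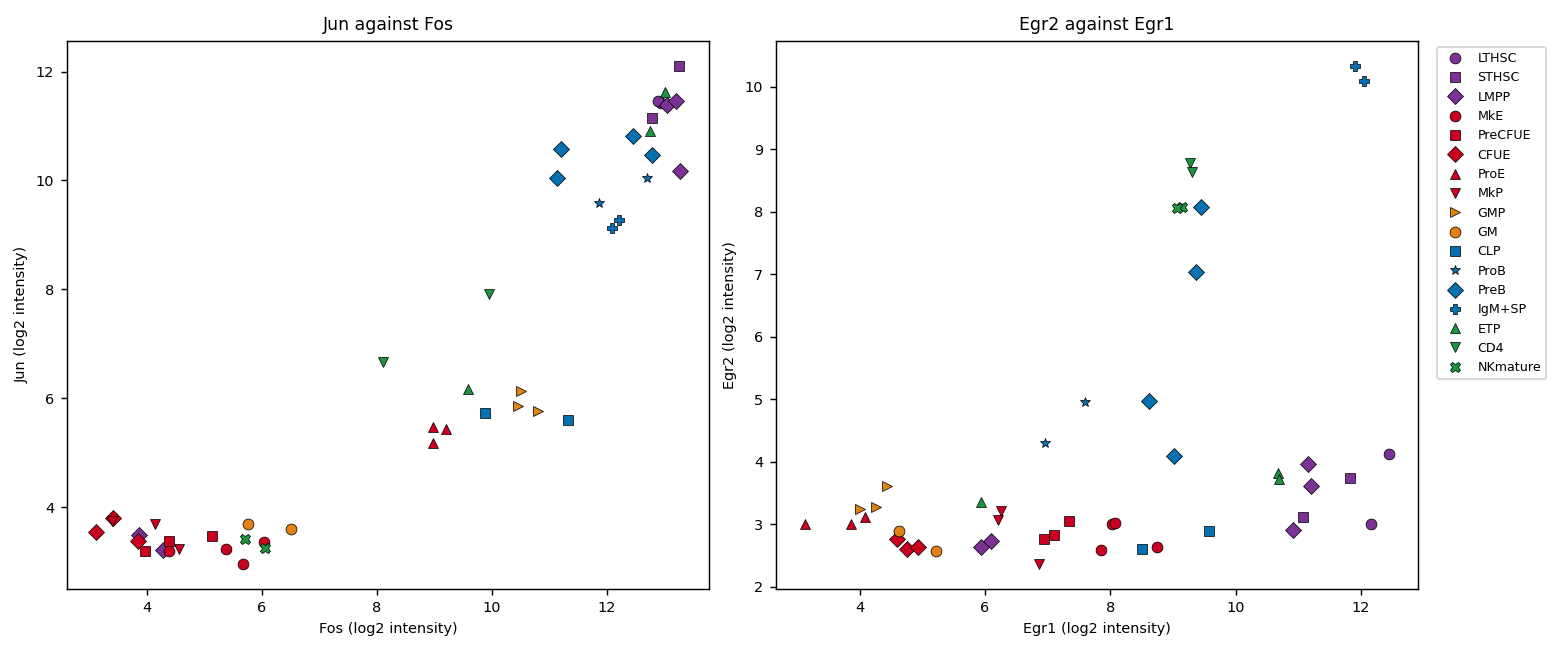
Jun against Fos and Egr2 against Egr1, both axes in log2 intensity, with 1 symbol per array coloured by branch and shaped by group. Jun and Fos climb together with GMP, CLP and ProE arrays bright for Fos but near 6 or lower for Jun. In the right panel stem cell arrays lie low for Egr2 and IgM+SP arrays are at the top for Egr2, while the LTHSC arrays (12.44 and 12.16) are highest for Egr1.

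The genes whose within-group deviations were most like the mean of the 10 were taken by the highest Pearson correlations among the other genes. Dusp1, a phosphatase that inactivates MAP kinases, came first with r of 0.965 over 47 arrays. Its level was 11.67, 11.89, 11.36, 6.07 and 5.99 on the LMPP arrays and 7.91, 11.21 and 11.41 on the ETP arrays, the same arrays high and low as for Jun. Next were Zfp36, which destabilises AU-rich mRNAs, at 0.941, Nfkbiz, an atypical IkappaB protein, at 0.926, the chemokine Ccl3 at 0.915 and Ppp1r15a, which restores translation after stress, at 0.914. Ier3 had 0.912, Dusp2 0.899, H1f2 0.891, Klf4 0.885, Ier5 0.880, Tnfaip3 0.874, Nr4a1 0.846, Ing2 0.832, Klf2 0.831 and Nfkbid 0.814. Without LMPP and ETP these values fell: Dusp1 had 0.304, Zfp36 0.499 and Ier3 -0.004. Tlr3 moved most against the mean, with r of -0.917, and was 3.23, 3.08, 3.60, 5.64 and 6.14 on the LMPP arrays. It was 5.54, 3.27 and 3.52 on the ETP arrays, and without LMPP and ETP its r was -0.037.

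Across the 17 group means the genes most like the mean of the 10 were Zfp36 (0.961), Dusp1 (0.947), Ccnl1 (0.936), Tnfaip3 (0.931), Nfkbiz (0.916), Chd8 (0.914), Csrnp1 (0.912), Klf6 (0.898), Neurl3 (0.869) and Nr4a1 (0.864). Zfp36, Dusp1, Tnfaip3, Nfkbiz and Nr4a1 stood in both orders. Chd8 did not, with r of 0.026 within groups.

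Pathway lists set the 10 genes beside their surroundings. Within-group r over 0.5 was reached by 9 of 14 NF-kappaB targets and inhibitors, 8 of 14 MAP kinase phosphatases and feedback inhibitors, 8 of 18 other early response genes and 6 of 17 other immediate early transcription factors, where 2.42% of all genes reached it. The median r of the 4 lists was 0.65, 0.55, 0.43 and 0.45 in that order, and 0.25, 0.24, 0.11 and 0.21 without LMPP and ETP. None of 14 MAP kinases and upstream factors, 15 other bZIP partners of AP-1 or 9 housekeeping genes did. Mapk8, a Jun kinase, had 0.446, and the transcription factor Creb1 had -0.643. Of 11 heat shock genes, Hspa1b and Hspa1a passed 0.5. Hspa1b was 9.13, 7.53, 10.21, 5.07 and 4.91 in LMPP, 4.88, 12.49 and 12.62 in ETP and 7.14, 6.17, 12.76 and 12.59 in PreB, so it followed Fos in ETP but was high on the PreB arrays where Fosb was low. Among the other immediate early transcription factors Myc had 0.056 and Nr4a3 -0.134.

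Branch comparisons ask where along the lineage tree the levels differ. In all of them a gene was called at an adjusted p under 0.05 and at least 2-fold by limma with 1 spread shared over 47 arrays, and the wide LMPP and ETP spread enters every error.

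In MkE against LTHSC, 8 of the 10 genes were lower and none higher, where 10.3% and 8.98% of all genes tested were. Jun was 3.19, 3.36, 2.96 and 3.22 in MkE, against 11.42 and 11.46 in LTHSC, a log2 difference of -8.26 ± 1.37 (SE, n = 4 and 2). Fos differed by -7.54 ± 1.54, Fosb by -6.30 ± 1.15 and Ier2 by -4.74 ± 0.87. No MkE array reached an LTHSC array for the 8 genes called, and Egr2 and Egr3 overlapped. Of all genes tested, 43.6% did not overlap. For Atf3, 1 of the 8, LTHSC array 2 was dim at 3.60 and near the MkE arrays (2.85 to 3.30), while LTHSC array 1 was 6.40. The neutrophil list was 6.48 to 8.15 in MkE, against 4.44 and 3.93 in LTHSC. Xist was 10.96 to 11.51 and Eif2s3y 2.54 to 2.96 in MkE, against Xist at 4.73 and 4.36 and Eif2s3y at 8.03 and 8.69 in LTHSC, and their part in the differences was not tested. With the LMPP and ETP arrays left out of the fit the SE of Jun was 0.26 and again 8 genes were called lower, where 10.3% of all genes were. Of 14 MAP kinase phosphatases and feedback inhibitors 1 was higher and 8 lower, and of 18 other early response genes 2 were higher and 11 lower, with medians of -1.77 and -1.06 against -0.04 over all genes. Of 14 NF-kappaB genes 7 were lower. MAP kinases and upstream factors gave 0 of 14 in either direction.

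In LMPP against STHSC, 1 gene was lower, Fosb, where 1.5% of all genes were, and none was higher (3.92%). Fosb was 9.56, 9.24, 8.10, 3.20 and 2.84 in LMPP, against 9.62 and 10.50 in STHSC, a difference of -3.47 ± 1.11 (SE, n = 5 and 2). No LMPP array reached an STHSC array for Fosb, the 1 gene of the 10 without overlap (21.1% of all genes), and array 1 came nearest. Without LMPP array 1 or 2, 6 genes were lower, without array 3, 3 were, and without array 4 or 5 or either STHSC array, 0 were. The 1.5% is from the fit of all arrays. These counts stand without the share of all genes in their own fits, and nothing is read from them. The 14 feedback inhibitors gave 0 calls in either direction, as did the 18 other early response genes. Xist was 3.89 to 10.54 in LMPP, against 3.70 and 3.91 in STHSC. Eif2s3y was 6.89 to 8.43 in LMPP, against 7.22 and 8.35 in STHSC. The part of these transcripts was not tested.

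In GMP against LMPP, which shares the LMPP arrays with the comparison just given, 5 genes were lower and none higher, where 6.24% and 10.6% of all genes were. Egr1 was 4.01, 4.43 and 4.26 in GMP, against 11.20, 10.91, 11.16, 5.93 and 6.09 in LMPP, a difference of -4.83 ± 0.85 (SE, n = 3 and 5). Fosb differed by -3.14 ± 0.97, Junb by -2.06 ± 0.61 and Atf3 by -1.69 ± 0.54, and Jund was also called. For Fosb, Junb and Jund the GMP and LMPP arrays overlapped, and for Egr1 and Atf3 they did not (40.7% of all genes). For Atf3 the groups all but met at a dim level, with 3.20 the highest in GMP and 3.22 the lowest in LMPP. With the 2 groups fitted alone 2 genes were lower, as the calls of Fosb, Junb and Atf3 were lost, and Atf3 was also lost under a floor at an intensity of 16. The share of all genes in that smaller fit is not given here, and nothing is read from its count. The neutrophil list was 7.66 to 8.13 in GMP, against 3.86 to 8.60 in LMPP. Xist was 3.58 to 4.15 in GMP, against 3.89 to 10.54 in LMPP. Eif2s3y was 8.66 to 8.91 in GMP, against 6.89 to 8.43 in LMPP. The part of these transcripts was not tested. Fos was not called, with 10.45 to 10.79 in GMP between the high and the low LMPP arrays. Of the 14 feedback inhibitors 7 were lower, and of 14 NF-kappaB genes 6 were.

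In ETP against CLP, Jun was higher and no gene lower, where 22% and 7.16% of all genes were. Jun was 6.17, 10.91 and 11.62 in ETP, against 5.72 and 5.59 in CLP, a difference of 3.91 ± 1.45 (SE, n = 3 and 2). ETP array 1 came nearest to the CLP arrays. Jun and Egr2, which was not called, did not overlap (65.9% of all genes). On the second Jun set, which the fit did not use, the groups overlapped, with 6.09 on ETP array 1 and 6.22 on CLP array 2. Egr2 was dim on all of these arrays, at 3.36 to 3.82 in ETP and 2.60 to 2.90 in CLP. The call was lost without either CLP array and without ETP array 2 or 3, with differences of 2.88 to 5.61 over the arrays left out. Of 11 heat shock genes 8 were higher, and of 14 feedback inhibitors 7 were higher and 1 lower, with medians of 1.13 and 1.18 against 0.09 over all genes. Normalizing by quantiles again gave 1910 genes higher and 1856 lower, against 3075 and 999 on the deposited scale. The CLP arrays had the highest medians of all arrays, 16.93 and 16.89, and the lowest upper quartiles, 50.21 and 50.72. Xist was 3.76, 10.95 and 11.21 in ETP, against 5.14 and 4.55 in CLP. Eif2s3y was 8.53, 7.68 and 7.17 in ETP, against 6.83 and 5.74 in CLP. The part of these transcripts was not tested.

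In IgM+SP against PreB, Egr2 and Egr1 were higher and no gene lower, where 3.4% and 9.43% of all genes were. Egr2 was 10.34 and 10.10 in IgM+SP, against 4.98, 4.10, 7.04 and 8.08 in PreB, a difference of 4.17 ± 0.53 (SE, n = 2 and 4). Egr1 was 11.90 and 12.05 in IgM+SP, against 8.62, 9.02, 9.36 and 9.44 in PreB, a difference of 2.86 ± 1.01. These genes and Jun, which was not called, did not overlap between the groups (36.5% of all genes). The Egr1 call was lost without either IgM+SP array and without PreB array 1 or 2, and the Egr2 call with the 2 groups fitted alone. The neutrophil list was 11.04 and 10.34 in IgM+SP, against 3.82, 6.23, 10.37 and 10.95 in PreB. Xist was 4.80 and 4.09 in IgM+SP, against 10.64, 10.46, 3.84 and 3.91 in PreB. Eif2s3y was 8.90 and 9.27 in IgM+SP, against 2.03, 2.27, 9.60 and 9.50 in PreB. The part of these transcripts was not tested. The second Egr3 set, which the fit did not use, was 10.86 on both IgM+SP arrays, against 5.52 to 7.58 in PreB. With the LMPP and ETP arrays left out of the fit Jun was also lower, by -1.28 ± 0.26, where 9.48% of all genes were lower. Of 17 other immediate early transcription factors 7 were higher, and of 14 NF-kappaB genes 4 were.

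In NKmature against CD4, none of the 10 genes was called in either direction, where 11.8% of all genes were higher and 8.6% lower. Fos was 6.05 and 5.70 in NKmature, against 9.95 and 8.10 in CD4, and Jun was 3.25 and 3.41, against 7.91 and 6.66 in CD4. The differences were -3.15 ± 1.78 for Fos and -3.96 ± 1.58 for Jun (SE, n = 2 each). The second Jun set, which the fit did not use, lay closer together, at 5.14 and 5.01 in NKmature against 6.55 and 5.77 in CD4. Arrays of the groups did not overlap for 7 of the 10 genes, Fos, Jun, Junb, Egr1, Egr2, Atf3 and Ier2, where 68.3% of all genes did not. With the LMPP and ETP arrays left out of the fit the errors were 0.56 and 0.30 and both were called lower, where 8.65% of all genes were. Egr1 was 9.14 and 9.07 in NKmature, against 9.27 and 9.31 in CD4, a difference of -0.18 ± 1.17. The neutrophil list was 10.76 and 10.86 in NKmature, against 3.85 and 4.43 in CD4. Xist was 8.44 and 8.81 in NKmature, against 9.62 and 10.47 in CD4. Eif2s3y was 8.79 and 8.53 in NKmature, against 2.63 and 2.71 in CD4. The part of these transcripts was not tested.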

How the data were processed

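Each array has 1 linear intensity per probe set, which the authors computed by RMA (series design text). The scaling between arrays is not given in the sources used here. Log2 was taken with no pseudocount (no value was 0). Of 45101 probe sets, 34958 had 1 gene symbol in the platform annotation, 932 several and 9211 were not listed. The brightest probe set stood for each of 18194 genes, of which 9012 had several. Tested were 13949 genes with a group mean over 3.889, the median log2 value; all 10 genes passed through at least 1 group.

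Groups came from the labels. A model of 17 group means (30 residual degrees of freedom) was fitted with limma 3.58.1 in R 4.3.3 and tested on simulated data. Calls needed a Benjamini-Hochberg adjusted p under 0.05 and 2-fold. The members and lists were chosen with earlier results of these data known. Named are the 10 genes, the 15 and 10 most alike within groups and over group means, up to 6 per list by correlation, and up to 4 called members per comparison; other genes were named after their values were seen. Replicate numbers did not pair arrays: same-numbered deviations correlated at -0.14 to 0.40. Alternatives were other probe set rules, filters, scalings, a floor, the replicate block, smaller fits and left-out arrays. The number of arrays limits the precision.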

Additional observations from a re-analysis of the deposited data

Results flagged for a closer look

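Jund on PreB array 1 stood at 11.22, below the nearest PreB array at 11.79, with a gap of 0.852 of the group's range. It was the only value marked among 33 sets of 4 or 5 arrays checked, and chance alone marks about 1 in 20 such sets. The check marks only a single array that stands apart, by its gap as a share of the range. It cannot mark arrays that lie apart as a pair, such as LMPP arrays 4 and 5, and smaller groups such as ETP were not checked. So it does not measure how far a value lies from its group on the log2 scale.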

How the results depend on the processing

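The called differences of the 10 genes that are printed above from the fit of all arrays kept their direction under every alternative run. Direction was not followed for counts, uncalled genes, lists or spreads. Where a count among the 10 genes stands here without that of all genes in the same fit, nothing is read from it. Counts in genes with probe sets averaged were 693 higher in MkE against LTHSC, 226 higher with 0 of the 10 genes lower in LMPP against STHSC, 937 higher in GMP against LMPP, 626 lower in ETP against CLP and 306 higher in IgM+SP against PreB. With no filter, 0 of the 10 were lower in LMPP against STHSC and 1 was higher in IgM+SP against PreB, and a floor at an intensity of 16 gave the same pair, 0 and 1. A stricter filter gave 528 genes lower in ETP against CLP and 1 of the 10 lower in NKmature against CD4. Quantile normalization again gave 1910 higher and 1856 lower in ETP against CLP, beside 3075 and 999 as deposited, and centring arrays gave 559 lower. The replicate block, with numbers that do not pair arrays, gave 305 genes higher and 0 of the 10 lower in LMPP against STHSC, 2 of the 10 higher in ETP against CLP and 1 lower in NKmature against CD4. Fits of 2 groups alone gave 152 higher, 74 lower and 0 of the 10 lower in LMPP against STHSC, 2 of the 10 lower in GMP against LMPP, 108 higher, 193 lower and 1 of the 10 higher in IgM+SP against PreB, and 2 lower in NKmature against CD4. With LMPP and ETP left out of the fit, 1 was lower in IgM+SP against PreB and 2 in NKmature against CD4. Leaving out 1 array gave 719 to 1753 genes higher in MkE against LTHSC (719 without LTHSC array 1), 181 to 768 higher in LMPP against STHSC (181 without STHSC array 1) with 0 to 6 of the 10 lower, 0 to 1 of the 10 higher and 0 to 1 lower in ETP against CLP, and 305 to 645 genes higher (305 without IgM+SP array 1) and 1 to 2 of the 10 higher in IgM+SP against PreB. Fosb in LMPP against STHSC, Egr1 in IgM+SP against PreB and Jun in ETP against CLP lost their calls under several of these. So did Fosb, Junb and Atf3 in GMP against LMPP and Egr2 in IgM+SP against PreB when 2 groups were fitted alone, and Atf3 under the floor. Leaving out the arrays labelled ProB, or taking the probe set with the widest group means, moved no count by over 1.5 times. These settings, and the fit and correlations without LMPP and ETP, were chosen after seeing the data. The cause of these shifts was not tested.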
